A study of Mus musculus with 9 samples.

Results

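The enzymes that write and erase chemical marks on histones and DNA are described here in mouse bone marrow cells sorted for Sca1 and cKit and against lineage markers (LSK cells), among which are the stem cells and multipotent progenitors of blood. Their genes were taken by symbol: the lysine demethylase (Kdm), lysine methyltransferase (Kmt, Setd, Nsd, Ezh, Suv39h, Ehmt, Dot1l), arginine methyltransferase (Prmt), lysine acetyltransferase (Kat), histone deacetylase (Hdac), sirtuin (Sirt), DNA methyltransferase (Dnmt) and Tet names. The table has 14940 rows, and 76 of them carry such a symbol. The rule left out 4 (Kdm3a, Kdm5c, Kdm5d and Kdm6a), and 72 remained. Hdac1 was not analysed here. Because the symbol alone chose them, enzymes that the table lists under older names, or under names of another form, are not among the 72. All 72 passed the filter on low values, with a mean over the 9 libraries between 13.3 and 4679 (median 758, against 277 over the 12892 genes tested).

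Methyl groups on cytosine are copied to new DNA strands by DNMT1, laid down anew by DNMT3A and DNMT3B and oxidised by the TET enzymes. On histone tails, methyltransferases and demethylases set marks that go with active genes (on H3K4, H3K36 and H3K79) or silent genes (on H3K9 and H3K27), while acetyltransferases and deacetylases set acetylation. Several of these genes, among them Dnmt3a, Tet2, Kmt2a, Ezh2 and Kdm1a, are known for their part in the self-renewal and differentiation of blood stem cells.

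The 9 libraries came from C57BL/6 mice, 3 in each group: untreated naive mice (day 0), mice immunized 3 days before with residues 35 to 55 of myelin oligodendrocyte glycoprotein in complete Freund's adjuvant (the experimental autoimmune encephalomyelitis or EAE model), and mice immunized in the same way and given SR59230A, an antagonist of the β3-adrenergic receptor, during those 3 days. Ages are not given in the labels. No group received adjuvant without the peptide, and none is described as given a vehicle in place of the antagonist, so the parts of adjuvant and peptide, and of the drug and its administration, cannot be told apart. In such bulk samples, a change in the makeup of the sorted cells and a change of RNA within each cell cannot be told apart either.

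The deposited values are whole numbers that the authors adjusted in a way not described, so they are called values here and not reads, and depth is unknown. Scaled for library size, they were compared as log2(value + 1) with limma-trend over all 12892 genes tested, and a gene was called at a Benjamini-Hochberg adjusted p under 0.05. Fold changes are log2 differences ± SE. Ranges of adjusted p are over all alternatives run. Of these, 1 leaves out the 2 covariates of the fit that are described under processing. The fits of only the 6 libraries compared hold none either, and those with 1 library left out hold 1. The fit without the covariates understates the spread, and the others with fewer covariates may do so too. The low ends of some ranges come from these fits. Leaving out a library of the group not compared removes no value of the 2 groups compared. Passing only in fits with fewer covariates is no independent support. Kit, a gene of the gate, ran from 4846 to 7235 over the 9 libraries and Ly6a, which encodes Sca1, from 1412 to 2539. Among T cell genes Cd3g and Cd8a ran from 2.05 to 6.1 and from 0 to 8.14, while Cd4 ran from 133 to 211 and Cd28 from 32.9 to 254. The natural killer cell gene Nkg7 ran from 545 to 916. The erythroid gene Klf1 ran from 4.7 to 5.07 in naive, 2.05 to 4.17 in EAE and 9.15 to 12.2 in treated libraries, and Car2, also on the erythroid list, from 2945 to 8921 over the 9. Other cells' genes were not at 0: the summed value of 10 mature neutrophil genes ran from 2363 to 6308 in naive, 3212 to 15584 in EAE and 7105 to 15903 in treated libraries, with EAE replicate 2 the lowest EAE library. That library also stood apart on the third principal component (13.2% of the variance). Genes of odorant, taste and vomeronasal receptors, here called chemosensory genes, held 0.149% to 0.178% of the values in naive, 0.105% to 0.119% in EAE and 0.0785% to 0.0982% in treated libraries.

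EAE against naive asks which enzyme genes differed 3 days after immunization. Of the 72 genes 12 passed: Suv39h1, Prmt5, Kat2a, Hdac6, Tet2, Hdac2 and Dnmt1 rose, and Hdac9, Prmt2, Hdac11, Dnmt3b and Kdm5b fell. All of these changes were below 2-fold, with log2 fold changes between -0.84 and 0.61. The 12 are 16.7% of the enzyme genes, and of all genes tested 14.4% were called. The 7 that rose are 9.72% (9.24% of all genes) and the 5 that fell 6.94% (5.14% of all genes). These shares were close to those of the whole table, so the number of calls is no result about the enzymes as a set. The libraries of the groups did not overlap in 31 of the 72 (43.1%, and 39.5% of all genes), among them all 12 called. The median log2 fold change of the 72 was -0.01, and -0.0018 over all genes. In size, the median was 0.18 for the enzymes and 0.24 for all genes.

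Scaling and the chemosensory share bear on these counts. With upper-quartile scaling 13 enzyme genes were called, 3 higher and 10 lower, and without scaling 6 were, 1 higher and 5 lower. As reported 7 were higher and 5 lower. Of all genes 1721 and 1059 were called in these fits, against 1854 as reported. Over all genes the share of calls that were higher moved from 64.2% to 46.9% with upper-quartile scaling. With the chemosensory share of each library as a further term 0 enzyme genes were called by limma-trend, and 93 of all genes. None of the 12 changed direction with another scaling. With the chemosensory term 11 of the 12 kept their direction, and 9 were as large or larger, while the median SE of the 12 went from 0.10 to 0.25. Since 92.5% of the variance of that share lay between the groups, it and the groups can hardly be told apart, and its part in the results was not tested. The falls of Dnmt3b, Prmt2, Hdac9, Hdac11 and Kdm5b and the rise of Suv39h1 passed in each of the other 17 alternatives run.

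**Figure D1:**
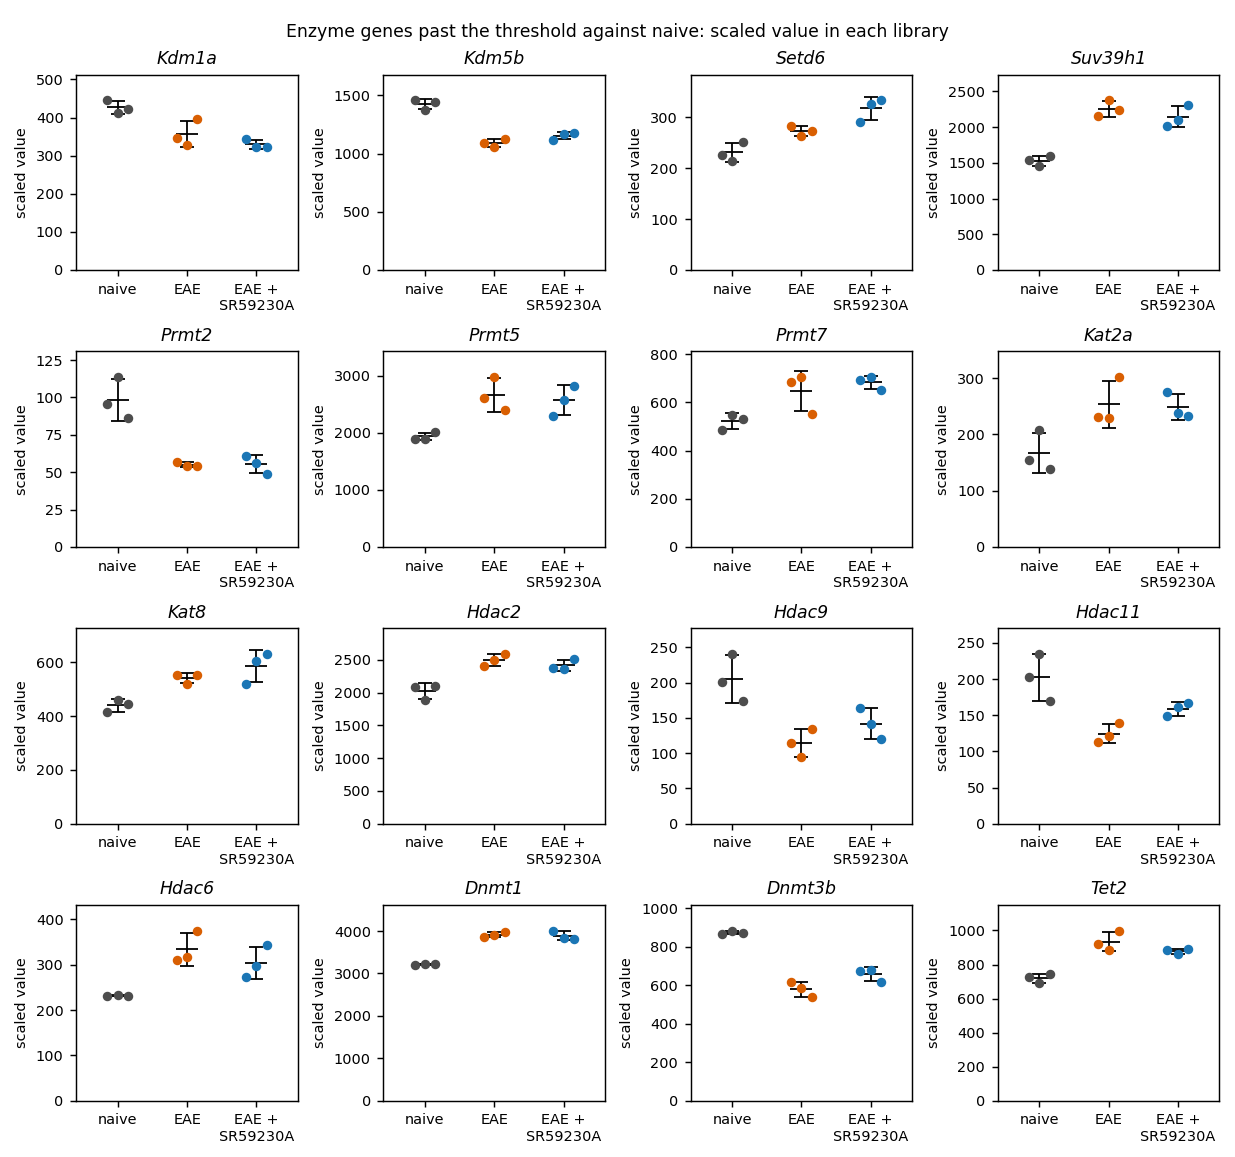
Scaled value (vertical axis, from 0) of the 16 enzyme genes that passed in EAE or in SR59230A-treated mice against naive mice. Each point is 1 library, and the black bars give the mean and SD of 3 libraries. Naive libraries lie apart from EAE libraries in the 12 genes called there, for example at 866 to 884 against 538 to 615 for Dnmt3b.

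Among the DNA methyltransferases the maintenance enzyme and a de novo enzyme moved in opposite directions. Dnmt3b stood at 866, 884 and 873 in the naive libraries and at 615, 585 and 538 in the EAE libraries. All EAE libraries lay below all naive libraries, and the naive values differed little among themselves. Dnmt3b fell by 0.60 ± 0.10 on the log2 scale (limma-trend adjusted p = 0.00243), the lowest adjusted p among the 72 genes. In the treated libraries it was 675, 682 and 615, again below every naive library, a fall by 0.41 ± 0.10 (limma-trend adjusted p = 0.0157). Dnmt1 was 3195, 3228 and 3220.2 in naive, 3866, 3895 and 3986 in EAE and 4007, 3836 and 3820.2 in treated libraries. Both immunized groups lay above the naive group with no overlap. It rose by 0.29 ± 0.08 in EAE mice (limma-trend adjusted p = 0.0418) and by 0.27 ± 0.08 in treated mice (adjusted p = 0.0472). These rises of Dnmt1 passed narrowly. Without naive replicate 1 the limma-trend adjusted p was 0.0713 for EAE and 0.0792 for treated mice. With upper-quartile scaling it was 0.121 and 0.165, and without scaling 0.202 and 0.411. For treated mice the call was also lost without naive replicate 3 (0.0507), treated replicate 1 (0.0511) or treated replicate 2 (0.0721) and without a filter (0.0543). Over all alternatives it ranged from 0.0032 to 0.718 for EAE and from 0.00383 to 0.89 for treated mice.

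Dnmt3a, the other de novo enzyme and a gene often mutated in clonal blood disorders, did not pass. It was 755, 864 and 796 in naive, 709, 598 and 639 in EAE and 662, 692 and 623 in treated libraries. Its naive libraries lay above all others, with log2 fold changes of -0.32 ± 0.11 for EAE (limma-trend adjusted p = 0.0687) and -0.29 ± 0.11 for treated mice (0.086). It passed with upper-quartile scaling (adjusted p = 0.0304 for EAE and 0.0327 for treated mice). It also passed in EAE mice without EAE replicate 1 (0.0249) or treated replicate 3 (0.0449), over a range from 0.0168 to 0.374, and in treated mice without EAE replicate 1 (0.0407), 2 (0.0417) or 3 (0.045), over a range from 0.0158 to 0.554. Dnmt3aos, an RNA from the opposite strand of the Dnmt3a locus, ranged over 36.8 to 65.0 with overlapping groups. Whether the counting kept strands apart is not stated, so reads of this pair may have been mixed.

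The promoters of the DNA methyltransferase genes that moved apart, and of Suv39h1, the gene with the clearest rise, are shown so that the letters they hold can be compared. They are RefSeq windows of 300 bases (250 before and 50 after a start), build GRCm38.p6, printed 5′ to 3′ on the gene's strand. Capitals mark the letters of the motifs searched on both strands: the CCAAT box (CCAAT), the GC box (GGGCGG), E2F (TTTCCCGC or TTTGGCGC), the cAMP response element (TGACGTCA), the E-box (CACGTG), NRF1 (GCATGCGC) and ETS (CCGGAAG). Dnmt1 and Suv39h1 have further start sites in the table, and the window with the most motif letters is shown for each.

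Dnmt1, chr9:20952574-20952873, minus strand: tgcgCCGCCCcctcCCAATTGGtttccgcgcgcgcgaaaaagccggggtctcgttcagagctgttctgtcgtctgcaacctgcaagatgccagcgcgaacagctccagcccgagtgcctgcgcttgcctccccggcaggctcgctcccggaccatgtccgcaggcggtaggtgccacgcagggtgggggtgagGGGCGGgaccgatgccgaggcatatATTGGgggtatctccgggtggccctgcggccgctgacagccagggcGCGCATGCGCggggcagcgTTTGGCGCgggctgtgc
Dnmt3b, chr2:153649199-153649498, plus strand: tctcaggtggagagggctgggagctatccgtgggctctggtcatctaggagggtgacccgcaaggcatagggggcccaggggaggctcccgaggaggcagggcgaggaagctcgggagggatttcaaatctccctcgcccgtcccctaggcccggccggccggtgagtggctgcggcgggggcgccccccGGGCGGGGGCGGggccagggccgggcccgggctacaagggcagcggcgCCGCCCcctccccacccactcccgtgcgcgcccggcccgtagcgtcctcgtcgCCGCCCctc
Suv39h1, chrX:8074711-8075010, minus strand: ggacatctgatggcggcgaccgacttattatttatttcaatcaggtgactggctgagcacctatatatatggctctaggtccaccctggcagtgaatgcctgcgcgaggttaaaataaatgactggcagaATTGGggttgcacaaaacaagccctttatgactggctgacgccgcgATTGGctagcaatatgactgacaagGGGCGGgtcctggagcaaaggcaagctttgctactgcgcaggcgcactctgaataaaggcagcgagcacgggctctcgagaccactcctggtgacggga

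The Dnmt1 window holds 1 E2F match, 3 CCAAT matches and 2 GC boxes, the Dnmt3b window 4 GC boxes and the Suv39h1 window 2 CCAAT matches and 1 GC box. Overlapping NRF1 matches on both strands, in a stretch that reads the same on either strand, make up the remaining capitals of Dnmt1. Of the 72 genes 60 had a window in the table. Among the 7 genes that rose in EAE mice 1 (Dnmt1) held the TTTGGCGC form of the E2F motif, among the 5 that fell none did, and 1.09% of all genes tested with a window held it. The TTTCCCGC form was in none of the 7 and none of the 5, and in 2.29% of all genes tested with a window. The GC box was found in 5 of the 7 (71.4%), in 4 of the 5 (80%), in 70% of all 60 and in 62.7% of all genes tested. CCAAT was found in 4 of 7 and 2 of 5, with 42% over all genes tested. The cAMP response element was found in none of the 12, and in 3.26% of all genes tested. The E-box was found in none of the 12 either (10.9% of all genes tested). The ETS letters were found in 1 of the 12, Prmt2 (18.5%), and the NRF1 letters in 1, Dnmt1 (5.65%). These are counts of letters in short windows and not of bound sites.

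Of the TET dioxygenases Tet2 rose, at 725, 689.9 and 744 in naive and 919, 886 and 998 in EAE libraries. The groups did not overlap. Its rise was 0.38 ± 0.09 (limma-trend adjusted p = 0.0186), lost without scaling (0.105) and with upper-quartile scaling (0.0542), over a range from 0.00196 to 0.494. In treated libraries Tet2 was 884, 861 and 889.5, also above every naive library, but just missed the threshold (log2 fold change 0.29 ± 0.09, limma-trend adjusted p = 0.0548). It passed there without naive replicate 3 (0.0436) and without EAE replicate 1, 2 or 3 (0.0307, 0.0212 and 0.0131), over a range from 0.00525 to 0.771. The EAE libraries are not among those compared there. Without EAE replicate 3 the log2 fold change stayed at 0.29, and only the SE was lower (0.067), with 1 covariate in place of 2. Tet1 ranged over 922 to 1201 and Tet3 over 826 to 1120.1. Neither passed in any comparison, and for Tet3 the interval of the log2 fold change in EAE mice ran from -0.25 to 0.28.

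The rise with the lowest adjusted p was that of Suv39h1, which encodes an enzyme that trimethylates H3K9 in heterochromatin. It was 1539.7, 1456 and 1592 in naive, 2159, 2379 and 2238 in EAE and 2021, 2102 and 2311 in treated libraries. All 6 libraries of immunized mice were above all naive libraries. Suv39h1 rose by 0.57 ± 0.09 in EAE (limma-trend adjusted p = 0.00261) and by 0.49 ± 0.09 in treated mice (adjusted p = 0.0057), the latter lost without scaling (0.056, range 0.000748 to 0.312). Ehmt1 and Ehmt2, which encode the paired H3K9 methyltransferases GLP and G9a, did not pass (log2 fold changes 0.16 ± 0.11 and 0.17 ± 0.09 in EAE mice). Nor did Ezh2 and Ezh1, the H3K27 methyltransferase genes of Polycomb repressive complex 2. Ezh2 was 609 ± 54.2 in naive and 692 ± 51.2 in EAE mice (SD, n = 3 each), and Ezh1 was 951 ± 20.8 and 883 ± 70.8. The 95% interval of the log2 fold change was -0.05 to 0.42 for Ezh2 and -0.32 to 0.10 for Ezh1. In treated against naive mice Ezh1 had a log2 fold change of -0.25 ± 0.09 (limma-trend adjusted p = 0.102), and it passed with upper-quartile scaling (adjusted p = 0.0367), without the covariates of the fit (0.0216), in the 6 libraries compared alone (0.0107) and without EAE replicate 2 (0.045) or 3 (0.0257), over a range from 0.0107 to 0.829.

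Enzymes of H3K4 methylation were represented by 5 Kmt2 genes, Setd1a and Setd1b on the writing side, and none of the 7 passed. Kmt2a, which encodes MLL1, was 3843, 4047 and 3943 in naive and 3522, 3368 and 3462 in EAE libraries. Its naive libraries were the higher ones without overlap, with a log2 fold change of -0.19 ± 0.09 (limma-trend adjusted p = 0.199). Kmt2d ranged over 4309.6 to 5082, with a log2 fold change of -0.01 ± 0.09. All 5 Kmt2 genes had a log2 fold change below 0 in EAE mice, with a median of -0.18. On the erasing side Kdm5b, which encodes a demethylase of H3K4, fell. It was 1461, 1375 and 1439.7 in naive, 1091, 1053 and 1123 in EAE and 1117, 1168 and 1175 in treated libraries. The naive libraries were all above the other 6. The fall was 0.39 ± 0.09 in EAE (limma-trend adjusted p = 0.0116) and 0.31 ± 0.09 in treated mice (adjusted p = 0.0336). In treated mice it did not pass without naive replicate 1 (0.0693) or treated replicate 2 (0.0512), over a range from 0.0031 to 0.889.

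Kdm1a, which encodes LSD1, the flavin-dependent H3K4 demethylase of the CoREST complex, passed in treated mice. It was 446, 412 and 423 in naive, 348, 327 and 395 in EAE and 343, 322 and 323 in treated libraries. Both immunized groups lay below the naive group. The log2 fold change was -0.26 ± 0.11 in EAE (limma-trend adjusted p = 0.149, and 0.0289 without EAE replicate 3, over a range from 0.0289 to 0.609), and Kdm1a fell by 0.37 ± 0.11 in treated mice (adjusted p = 0.0466). It did not pass without naive replicate 1 (0.0998), naive replicate 3 (0.0513), treated replicate 2 (0.0855) or treated replicate 3 (0.0645) and without a filter (0.0514), over a range from 0.00402 to 0.67. Of all 13 lysine demethylase genes, 1 fell and none rose in EAE mice, and 2 fell in treated mice, where 5.14% and 4.66% of all genes tested fell. The median log2 fold changes were -0.13 and -0.06. Kdm6b, the inducible H3K27 demethylase gene, had 424, 487 and 375 in naive and 350.3, 325 and 454 in EAE libraries. These overlapped, and it did not pass (log2 fold change -0.19 ± 0.15). Kdm7a was lower in each EAE library (219, 185 and 276) than in each naive library (317, 329 and 299.6), also without passing (limma-trend adjusted p = 0.0642). It passed without EAE replicate 3 (0.00921), treated replicate 1 (0.0445) or treated replicate 3 (0.0461) and with upper-quartile scaling (0.0396), over a range from 0.00921 to 0.518. Kdm7a is named after its values were seen.

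Of the SETD, NSD and DOT1L genes, Setd6 passed in treated mice. SETD6 methylates the NF-kB subunit RelA. The gene was 227, 215 and 252 in naive, 283, 263 and 274 in EAE and 292, 327 and 334 in treated libraries. The 3 groups did not overlap. Setd6 rose by 0.46 ± 0.12 in treated mice (limma-trend adjusted p = 0.0288), while its log2 fold change in EAE mice was 0.24 ± 0.12 (adjusted p = 0.217). The call was lost without naive replicate 1 (0.0544), treated replicate 2 (0.0627) or treated replicate 3 (0.0501), without scaling (0.191) and with upper-quartile scaling (0.0718), over a range from 0.00381 to 0.448. Setd2, the writer of H3K36 trimethylation, ranged over 3960.3 to 4324 in naive, 3311 to 4254 in EAE and 4469 to 4554 in treated libraries. Its log2 fold change in EAE mice was -0.18 ± 0.11 (limma-trend adjusted p = 0.302), and without EAE replicate 2, its highest EAE library, the adjusted p was 0.0362 (range 0.0362 to 0.924). Nsd1, which encodes an H3K36 dimethyltransferase, was 4083 ± 70.7 and 4586 ± 206 in naive and EAE mice (SD, n = 3 each), and Dot1l, for the only known H3K79 methyltransferase, 675 ± 36.8 and 701 ± 17.7. None of these 3 passed. For Dot1l the interval of the log2 fold change was -0.15 to 0.26, so a 1.5-fold change lies outside it.

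Among the 7 arginine methyltransferase genes 1 rose and 1 fell in EAE mice (9.24% and 5.14% of all genes tested did), and 2 rose and 1 fell in treated mice (10.4% and 4.66%). Prmt5, for the main enzyme of symmetric arginine dimethylation, was 1899.6, 1899 and 2016 in naive, 2605, 2982 and 2406 in EAE and 2299, 2585 and 2826 in treated libraries. Every naive library was below the other 6, which varied more among themselves. It rose by 0.46 ± 0.11 in EAE (limma-trend adjusted p = 0.0182) and by 0.40 ± 0.11 in treated mice (adjusted p = 0.0308). Without scaling the EAE call was lost (0.0548, range 0.00508 to 0.156). The treated call was lost without naive replicate 1 (0.0672), treated replicate 2 (0.062) or treated replicate 3 (0.0676), without scaling (0.172) and with upper-quartile scaling (0.0781), over a range from 0.00595 to 0.32. Prmt2, for a less studied member of the family, was 95.3, 114 and 86.4 in naive, 56.9, 54.2 and 54.2 in EAE and 61.0, 56.0 and 48.9 in treated libraries. It was lower in all 6 immunized mice. Prmt2 fell by 0.82 ± 0.20 in EAE mice (limma-trend adjusted p = 0.021), close to the largest fall of the 72. In treated mice it fell by 0.82 ± 0.20 (adjusted p = 0.0212), there the largest fall of the 72.

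Prmt7, the monomethylating member of that family, was 486, 549.6 and 533 in naive, 685, 704 and 552 in EAE and 693, 706 and 652 in treated libraries. The EAE value of replicate 3 was just above the naive range. Prmt7 rose by 0.39 ± 0.12 in treated mice (limma-trend adjusted p = 0.0447) and did not pass in EAE mice (log2 fold change 0.30 ± 0.12, adjusted p = 0.108), though it did without EAE replicate 3 (0.0102, range 0.0102 to 0.68). The treated call was lost without naive replicate 1 (0.107), treated replicate 1 (0.0669) or treated replicate 2 (0.0934), without scaling (0.291) and with upper-quartile scaling (0.107), over a range from 0.00382 to 0.76. Prmt1, for the main enzyme of asymmetric dimethylation, was 1115, 1273 and 1280.0 in naive, 1599, 1522 and 1220.5 in EAE and 1533, 1618 and 1456 in treated libraries. It did not pass in any comparison (log2 fold change 0.33 ± 0.12 in treated mice, limma-trend adjusted p = 0.0778). Without EAE replicate 3 it passed in EAE mice (0.0204, range 0.0204 to 0.703) and in treated mice (0.0148), where it also passed without EAE replicate 1 (0.041, range 0.0091 to 0.755).

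Of 7 acetyltransferase genes 1 rose in EAE mice and 2 in treated mice, where 9.24% and 10.4% of all genes tested rose, and none fell. Kat2a, which encodes GCN5, the acetyltransferase of the SAGA complex, was 155, 208 and 138 in naive, 230.3, 229 and 302 in EAE and 275, 237 and 233 in treated libraries. The naive libraries were the lowest, with naive replicate 2 near the lowest EAE library. Kat2a rose by 0.61 ± 0.18 in EAE (limma-trend adjusted p = 0.0417), the largest log2 rise of the 72, and by 0.59 ± 0.18 in treated mice (adjusted p = 0.0471). In EAE mice Kat2a did not pass without naive replicate 1 (0.0941), naive replicate 3 (0.0802) or EAE replicate 3 (0.0743), without scaling (0.0863) and with upper-quartile scaling (0.0674), over a range from 0.0104 to 0.651. For treated mice it was lost without naive replicate 1 (0.103) or 3 (0.0893), without treated replicate 1 (0.10), 2 (0.069) or 3 (0.0582), without scaling (0.145) and with upper-quartile scaling (0.0832), over a range from 0.0118 to 0.507. With the chemosensory share as a term the direction of Kat2a turned, to -0.40 and -0.91.

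Kat8, for the H4K16 acetyltransferase MOF, was 415, 459 and 446 in naive, 554, 521 and 553 in EAE and 519, 605 and 632 in treated libraries. Naive libraries were below all others. It rose by 0.41 ± 0.11 in treated mice (limma-trend adjusted p = 0.0284), and in EAE mice its log2 fold change was 0.30 ± 0.11 (adjusted p = 0.0877, and 0.0329 without treated replicate 1, over a range from 0.0219 to 0.612). The treated call was lost without naive replicate 1 (0.0666), treated replicate 2 (0.0644) or treated replicate 3 (0.0558), without scaling (0.206) and with upper-quartile scaling (0.0725), over a range from 0.00508 to 0.684. Kat6a, which encodes MOZ, an acetyltransferase needed by blood stem cells, was 3029 ± 127 in naive and 3049.9 ± 85.5 in EAE mice (SD, n = 3 each). These values overlapped, and the interval of its log2 fold change was -0.19 to 0.21.

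Deacetylase genes moved in both directions in EAE mice. Hdac9, a class IIa deacetylase that acts with MEF2 factors, was 201, 241 and 174 in naive and 115, 94.1 and 134 in EAE libraries. Each EAE library was below each naive library, and the fall of 0.84 ± 0.19 (limma-trend adjusted p = 0.0151) was the largest of the 72 genes. Hdac11, the class IV deacetylase gene, was 203, 235 and 170.0 in naive and 114, 121 and 139.7 in EAE libraries, again without overlap. Hdac11 fell by 0.69 ± 0.16 (limma-trend adjusted p = 0.0172). Neither passed in treated mice, with Hdac9 at 164, 142 and 119.9 (log2 fold change -0.53 ± 0.19, adjusted p = 0.0873) and Hdac11 at 149, 161 and 168 (-0.34 ± 0.16, 0.186). The treated libraries lay between the other groups in mean value for both. The difference between treated and EAE mice did not pass for either gene (limma-trend adjusted p = 0.998 and 0.998), so a smaller fall in treated mice is not shown. In treated mice Hdac9 passed without naive replicate 3 (0.0451), EAE replicate 2 (0.0475) or EAE replicate 3 (0.0429), over a range from 0.0276 to 0.204.

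Hdac6, for the mainly cytoplasmic tubulin deacetylase, was 232, 233 and 230.1 in naive, 309.7, 317 and 375 in EAE and 274, 298 and 343 in treated libraries. The naive values were close together and below all others. Hdac6 rose by 0.52 ± 0.13 in EAE mice (limma-trend adjusted p = 0.0219), lost without scaling (0.0573, range 0.00426 to 0.491), and in treated mice had 0.39 ± 0.13 (adjusted p = 0.0681). In treated mice it passed without treated replicate 1 (0.0357) and without EAE replicate 1, 2 or 3 (0.0398, 0.0425 and 0.0225), over a range from 0.0141 to 0.766. Hdac2, a class I deacetylase of the NuRD, SIN3 and CoREST complexes, was 2080.0, 1882 and 2106 in naive and 2412, 2496 and 2590.0 in EAE libraries. Here too the groups lay apart. Hdac2 rose by 0.31 ± 0.09 (limma-trend adjusted p = 0.0397), lost without naive replicate 1 (0.0522), without scaling (0.151) and with upper-quartile scaling (0.115), over a range from 0.00553 to 0.336. Hdac3 was 951 ± 9.62 and 939.8 ± 44.3 in naive and EAE mice (SD, n = 3 each), a log2 fold change of -0.02 ± 0.09. None of the 7 sirtuin genes, whose products deacylate proteins with NAD as cosubstrate, passed in any comparison as fitted. Sirt7 in treated against naive mice (log2 fold change 0.29 ± 0.10, limma-trend adjusted p = 0.0707) passed without naive replicate 3 (0.048), without EAE replicate 1 (0.0315), 2 (0.0409) or 3 (0.0254), without the covariates of the fit (0.0148) and in the 6 libraries compared alone (0.0096), over a range from 0.0096 to 0.782. Sirt2 in EAE against naive mice (-0.24 ± 0.09, adjusted p = 0.105) passed with upper-quartile scaling (0.0441), without the covariates of the fit (0.017) and in the 6 libraries compared alone (0.0449), over a range from 0.017 to 0.681. Sirt1 ranged over 173 to 273 and Sirt4 over 8.45 to 24.0, with the widest interval of the 72 genes (-0.44 to 1.49 for the log2 fold change in EAE mice).

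**Figure D2:**
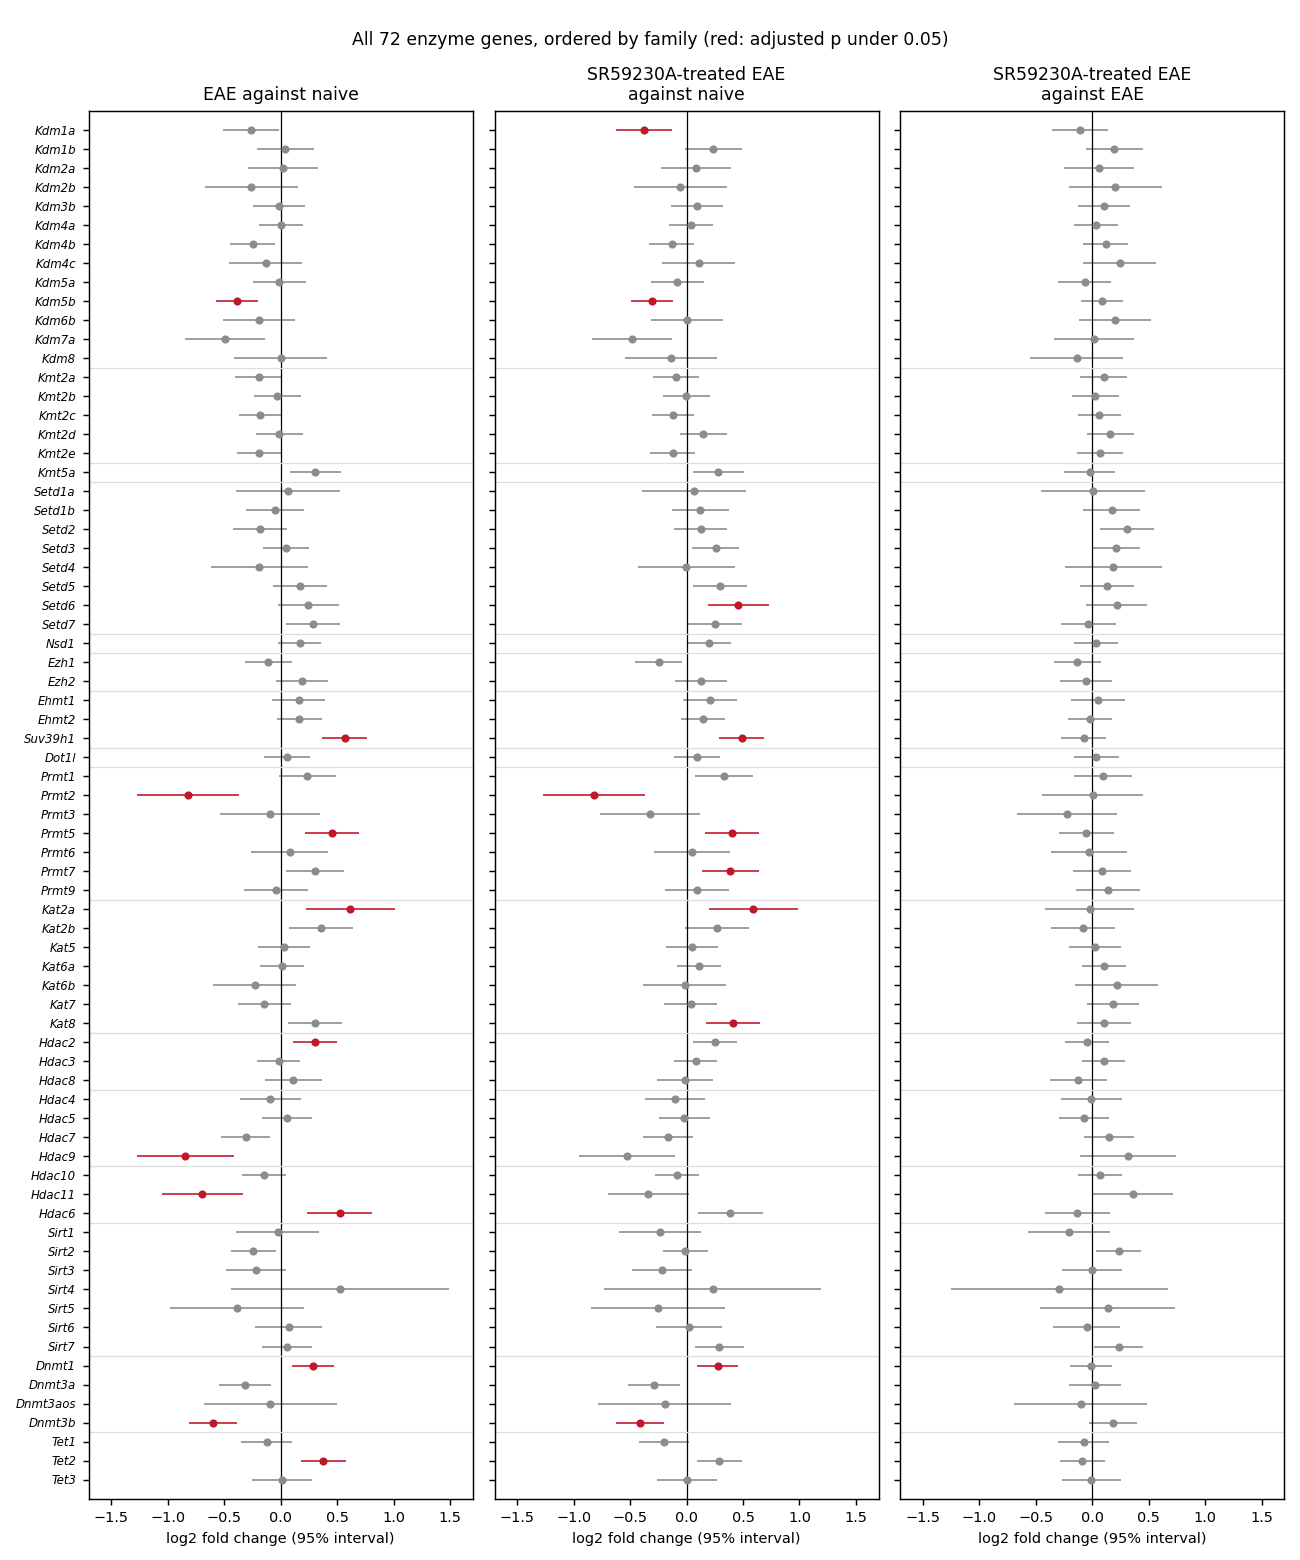
Log2 fold change (horizontal axis) of each of the 72 enzyme genes in the 3 comparisons, with unadjusted 95% intervals of limma-trend, ordered by family and separated by grey lines. Red marks adjusted p under 0.05. The red genes number 12 in EAE against naive, 11 in SR59230A-treated EAE against naive and 0 in SR59230A-treated EAE against EAE, and the interval of Sirt4 is the widest.

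SR59230A-treated EAE against naive shares the naive libraries with the comparison above, so the 2 are not independent and are set side by side only. Of the 72 genes 11 passed (15.3%, and 15% of all genes). Suv39h1, Dnmt1, Prmt5, Prmt7, Kat2a, Kat8 and Setd6 rose (9.72%, and 10.4% of all genes), and Dnmt3b, Kdm5b, Kdm1a and Prmt2 fell (5.56%, and 4.66% of all genes). The groups did not overlap in 38 of the 72 (52.8%, and 48.8% of all genes). Counts here moved more when 1 library was left out. In turn 3, 3 and 6 enzyme genes were called without naive replicate 1, treated replicate 2 or treated replicate 3 (1237, 1354 and 1694 of all genes). Without EAE replicates 1, 2 and 3 in turn, 20, 20 and 23 were (2727, 2948 and 3309 of all genes). The EAE libraries enter this comparison only through the covariates and the spread that the groups share. Those fits hold 1 covariate in place of 2, so their counts do not show the weight of single EAE mice. As reported 1938 of all genes were called, so the whole table moved in the same direction. With upper-quartile scaling 8 enzyme genes were called, 1 higher and 7 lower (1787 of all genes). Without scaling 5 were, all lower (1073 of all genes), a setting that moved the median of all genes from 0.0098 to -0.11. With the chemosensory share as a term 0 enzyme genes were called (25 of all genes), and 10 of the 11 kept their direction.

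SR59230A-treated EAE against EAE is the comparison that bears on the antagonist. None of the 72 enzyme genes passed by limma-trend (lowest adjusted p = 0.998), where 0.00776% of all genes, a single one, did. That gene was Car1, for a carbonic anhydrase of red cell precursors, at 540.3 to 546 in naive, 329 to 337 in EAE and 728 to 899.9 in treated libraries. It is on the erythroid list, of which all 7 genes tested had a positive log2 fold change in this comparison (median 0.19). So had all 6 of the B cell list (median 0.38) and all 5 of the endothelial and stromal list (median 0.18). Of the neutrophil list 8 of 10 had, of the T and natural killer cell list 3 of 5. Of the granulocyte-monocyte progenitor list 2 of 10 had, and of the megakaryocyte list 2 of 7. The part of these shifts in the enzyme values was not tested. At an unadjusted p under 0.05 there were 4 enzyme genes (5.56%, and 3.86% of all genes): Setd2, Sirt2, Sirt7 and Setd3. All 4 were higher in treated mice (2.22% of all genes), and none was lower (1.64% of all genes). Setd2 was 3453, 4254 and 3311 in EAE and 4487, 4469 and 4554 in treated libraries. The treated libraries were the higher ones, though EAE replicate 2 was close to them (log2 fold change 0.30 ± 0.11). Sirt2, for a mainly cytoplasmic deacetylase, was 660.1, 601 and 616 in EAE and 723, 763 and 715 in treated libraries, with 0.23 ± 0.09. For Sirt7 and Setd3 the log2 fold changes were 0.23 ± 0.10 and 0.21 ± 0.09. In 13 of the 72 genes the 2 groups did not overlap (18.1%, and 16.1% of all genes). Treated libraries were above all EAE libraries in 12 (16.7%, and 8.5% of all genes) and below them in 1, Sirt1 (1.39%, and 7.6%). By family, 7 of 8 Setd genes and all 5 Kmt2 genes had a log2 fold change above 0, with medians of 0.18 and 0.07. So had 10 of 13 lysine demethylase genes and 5 of 7 acetyltransferase genes. All 3 Tet genes (median -0.08) and the 2 Ezh genes had one below 0. Of all 72 genes 44 were above 0 and 28 below. The log2 fold changes of the 72 ran from -0.30 to 0.35 with a median of 0.03, against 0.01 over all genes. A p that misses the threshold does not show that the groups were alike. For 64 of the 72 genes the whole unadjusted 95% interval lay within a 1.5-fold change in either direction, and its median reach was 0.24 to either side on the log2 scale. The largest difference, that of Hdac11, had an interval of -0.01 to 0.72. In all 18 alternatives run, 0 enzyme genes passed in this comparison.

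Partners of these enzymes in their complexes, and related enzymes that the symbol rule does not reach, were counted from 9 lists, 124 genes tested in all. In EAE against naive mice 16 of the 124 passed (12.9%, and 14.4% of all genes tested). Of these 6 were higher (4.84%, and 9.24% of all genes) and 10 lower (8.06%, and 5.14% of all genes). Of 9 partners of Polycomb repressive complex 2, 1 fell, Phf1 (log2 fold change -0.70 ± 0.15), while Eed (0.27) and Suz12 (0.22) did not pass. Of 15 genes of Polycomb repressive complex 1, 1 fell, Cbx7, which encodes a reader of methylated H3K27 (-0.47 ± 0.11). Idh1, which makes 2-oxoglutarate, a cosubstrate of the TET enzymes, was at 236, 210.4 and 282 in naive and 491, 523 and 399 in EAE libraries. The groups lay well apart. It was the 1 of 11 genes around DNA methylation that passed, with a rise of 0.96 ± 0.14 (limma-trend adjusted p = 0.00143). Uhrf1, which brings DNMT1 to newly replicated DNA, did not pass (0.29 ± 0.10, adjusted p = 0.0639). It did without naive replicate 2 (0.0405), EAE replicate 1 (0.0231), treated replicate 1 (0.042) or treated replicate 3 (0.0458), over a range from 0.0137 to 0.853. Among the deacetylase complex partners Sap30 of the SIN3 complex rose (0.63 ± 0.13), and Rcor2, for a CoREST corepressor, fell (-0.47 ± 0.11). Of 18 further methyltransferase and PR-domain genes 2 rose, among them Setdb2 (0.44 ± 0.13), and 3 fell, among them Mecom and the stem-cell regulator Prdm16 (-0.63 ± 0.13). Of 8 further demethylase and related genes 1 fell, Padi4.

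Of 9 further acetyltransferase genes 2 fell, Ncoa2 (-0.37 ± 0.08) and Crebbp (-0.29 ± 0.09), and Ep300, the close relative of Crebbp, did not pass (0.03 ± 0.09). Of 11 partners of the MLL complexes 1 rose, Dpy30 (0.45 ± 0.11), a subunit they share. Of 22 acetyltransferase partners and acetyl-lysine readers 1 rose, Brpf1 (0.37 ± 0.10), which encodes a scaffold of the MOZ complex. Several of these calls needed 1 library or the scaling. With no scaling the limma-trend adjusted p was 0.108 for Dpy30, 0.138 for Crebbp, 0.135 for Brpf1 and 0.102 for Setdb2, and with upper-quartile scaling 0.0796 for Brpf1 and 0.0775 for Setdb2. With no filter on low values it was 0.052 for Crebbp. Without naive replicate 1 the limma-trend adjusted p was 0.0609 for Dpy30, 0.0609 for Crebbp, 0.0856 for Brpf1 and 0.0797 for Setdb2. Without naive replicate 3 it was 0.0606 for Crebbp, 0.0594 for Brpf1 and 0.0686 for Setdb2, and without EAE replicate 2 0.0508 for Dpy30 and 0.0666 for Setdb2. Over all alternatives the adjusted p ranged from 0.0021 to 0.318 for Dpy30, 0.0053 to 0.751 for Crebbp, 0.00802 to 0.78 for Brpf1 and 0.00998 to 0.748 for Setdb2. Phf1, Cbx7, Idh1, Sap30, Rcor2, Prdm16 and Ncoa2 passed in all alternatives but the chemosensory term, with which none of the listed genes did. With upper-quartile scaling 13 listed genes passed, 3 higher and 10 lower, where 46.9% of the calls over all genes were higher. In SR59230A-treated against naive mice 13 of the 124 passed (10.5%, and 15% of all genes tested). There 6 were higher (4.84%, and 10.4% of all genes) and 7 lower (5.65%, and 4.66% of all genes). Between treated and EAE mice none passed by limma-trend.

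Enzymes listed under older symbols lie outside the rule and were looked up after the values of the 72 were seen. Suv420h2 (now Kmt5c, an H4K20 methyltransferase gene) was 1655, 1739 and 1719.5 in naive, 2066, 2085 and 2028 in EAE and 2031, 2129.9 and 2162 in treated libraries, with the naive libraries the lowest. It rose by 0.27 ± 0.08 in EAE (limma-trend adjusted p = 0.047) and by 0.31 ± 0.08 in treated mice (adjusted p = 0.0294). In EAE mice it did not pass without naive replicate 1 (0.0923), without scaling (0.232), with upper-quartile scaling (0.131) or without a filter (0.0549), over a range from 0.00427 to 0.561. In treated mice it did not pass without naive replicate 1 (0.0613) or treated replicate 2 (0.0594), without scaling (0.322) or with upper-quartile scaling (0.103), over a range from 0.00238 to 0.704. Whsc1 (Nsd2), Whsc1l1 (Nsd3), Suv420h1 (Kmt5b) and Csrp2bp (Kat14) did not pass in either comparison with naive mice.

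Genes of other programs moved with the same groups. Of 34 DNA replication and mitosis genes 17 rose and none fell in EAE mice (median log2 fold change 0.35), and 16 rose and none fell in treated mice. Of all genes tested 9.24% rose and 5.14% fell in EAE mice, and 10.4% rose and 4.66% fell in treated mice. The summed value of the 34 was 42906 to 43885 in naive, 52124 to 57088 in EAE and 53515 to 54764 in treated libraries. The DNMT1 protein works at the replication forks of dividing cells. The summed value of 10 granulocyte-monocyte progenitor genes was 3408 to 3899.6 in naive, 16234 to 23207 in EAE and 15899 to 17188 in treated libraries, and 9 of the 10 rose in EAE mice. For 10 gate and stem-cell genes it was 27500.0 to 28615, 21144 to 21599 and 21495 to 22618, with 6 lower and 2 higher. The summed value of the erythroid list (8 genes of 10 in the table) was 9444 to 10325, 4598 to 4899 and 5653 to 6068, most of it from Car2 (7889 to 8921, 2945 to 3212 and 3298 to 3713). Of its 7 genes tested Gata1 and Tfrc rose and Car1 and Car2 fell in EAE mice (median log2 fold change -0.16), and Gata1, Tfrc and Car1 rose and Car2 fell in treated mice (median 0.61). The megakaryocyte list (8 of 8) was at 1213 to 1277, 2223 to 2679.9 and 2061 to 2385. Of its 7 genes tested Selp and Itga2b rose in both, while 4 of the 7 had negative log2 fold changes in each (medians -0.52 and -0.43). The endothelial and stromal list (7 of 9) was at 2638 to 3476, 2659 to 3622 and 3299.6 to 3814, most of it from Pecam1 (2164 to 2791, 2381 to 3309 and 2993 to 3458). Of its 5 genes tested Cdh5, Emcn and Sele fell in EAE mice (median -1.75), and Emcn and Sele in treated mice (median -1.69). Sele ran from 11.4 to 62.0 in naive, 0 to 3.61 in EAE and 0 to 3.06 in treated libraries. The T and natural killer cell list (7 of 10) was at 872 to 1048, 1193 to 1378 and 1184 to 1324. Of its 5 genes tested Klrb1c and Nkg7 rose in EAE mice, and these and Ncr1 in treated mice (medians 0.54 and 0.53). The B cell list (7 of 10) was at 993 to 1311, 796 to 969 and 1004 to 1096, and of its 6 genes tested Pax5 and Igll1 fell in EAE mice and none passed in treated mice by limma-trend (medians -1.15 and -0.84). No listed gene was at 0 in all libraries. The part of these shifts in the enzyme results was not tested. Without EAE replicate 2, the library with the lowest neutrophil sum of its group, 14 enzyme genes were called in EAE against naive, the 12 among them. Of all genes 1875 were called in that fit, against 1854 as reported. The neutrophil sum of EAE replicate 2 (3212) lay within the naive range (2363 to 6308). Leaving it out therefore does not test the part of neutrophil genes in the calls.

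**Figure D3:**
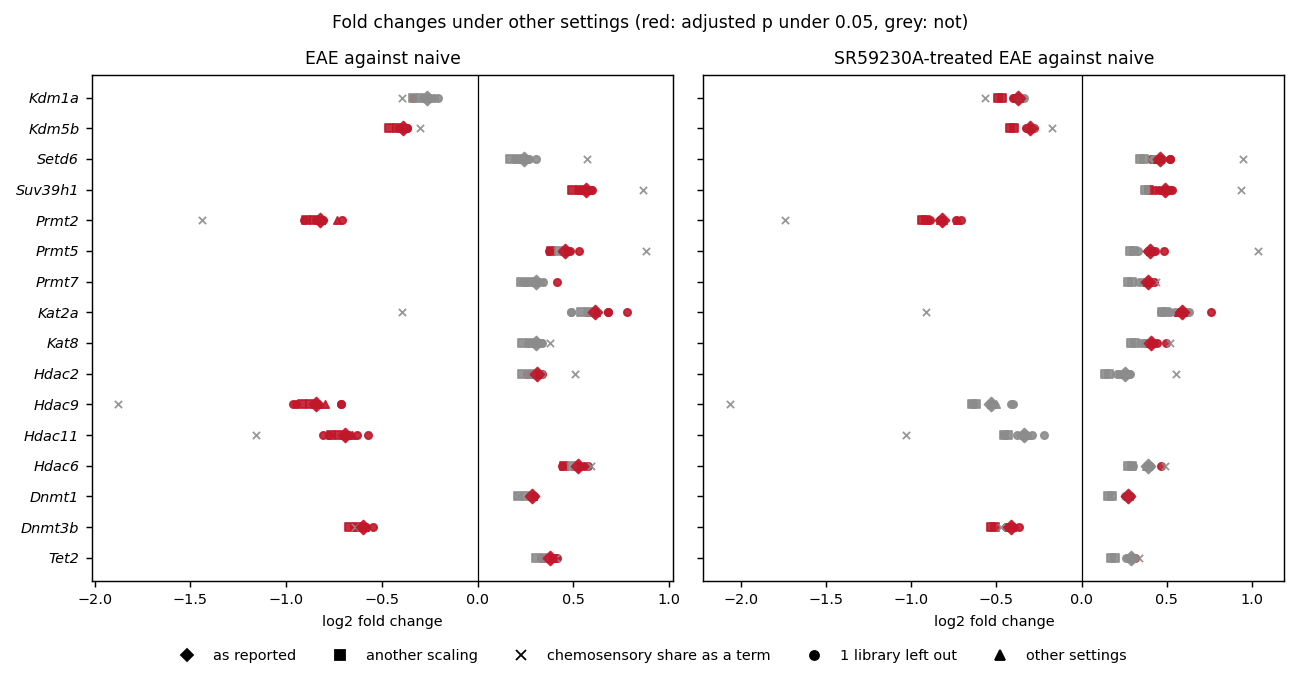
Log2 fold change (horizontal axis) of the 16 called enzyme genes against naive mice, as reported and under the 18 alternatives. Red marks adjusted p under 0.05 and grey a higher one. Squares (another scaling) lie left of the reported diamonds. Crosses, the fits with the chemosensory share as a term, are grey throughout, and for Kat2a they lie on the other side of 0.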

How the data were processed

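RNA of LSK cells from 9 mice was measured, with RNA prepared by the RNeasy micro kit per the labels' protocols. In the 1 deposited table the authors give whole numbers for 14940 genes, used here as a score and not as reads: in the ln values of 4577 genes of mean 500 or more, 7.65e-05% and 6.77e-05% of the variance fell on components 7 and 8, which independent read counts cannot do. DESeq2 is named in the submitters' processing notes without a version or role. Aligner, counter, build and annotation: not given in the sources used here. These 2 directions without variance lay within groups (99.4% and 99.8%), where the spread between mice is measured.

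Values were divided by median-of-ratios factors (0.900 to 1.11), and genes at 10 or more in 3 libraries were kept (12892). limma-trend (limma 3.58.1, R 4.3.3) was fitted, 2-sided, to log2(value + 1), which understates changes of low genes, with a coefficient per group and the 2 directions as covariates (4 residual degrees of freedom, prior 7.48) and Benjamini-Hochberg adjustment over all genes. The labels describe separate mice, and replicate numbers follow deposition order. The text names all enzyme genes called in any comparison, a fixed list of well-known ones, up to 3 called genes per partner list, and others as said there. One partner gene that the rule names is not reported here. Members and lists were chosen with earlier results of these data known. Motifs were counted in RefSeq promoter windows.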

Additional observations from a re-analysis of the deposited data

How the results depend on the processing

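Counts are of called enzyme genes, with those of partner genes after them. For EAE against naive (12 and 16) they were 6 and 10 without scaling, 24 and 25 when the directions without variance were no terms, 0 and 0 when the chemosensory share was one, and 20 enzyme genes with the 6 libraries alone. Leaving out 1 library gave 9 to 17 and 9 to 21. Calls over all genes went from 1854 to 1059, 3471, 93 and 2668 in these settings in turn, and to 1242 to 2629 with 1 library left out. For SR59230A-treated EAE against naive (11 and 13) the counts were 5 and 6, 25 and 32, 0 and 0, and 25 and 37 in the same settings. With 1 library left out they were 3 to 23 and 6 to 27. Calls over all genes went from 1938 to 1073, 3885, 25 and 4399 in turn, and to 1237 to 3309 with 1 library left out. The counts of enzyme genes thus moved with those of the whole table. The fits with 6 libraries, and those without the directions as terms, kept all 12 and all 11 enzyme calls. Without the directions as terms, 2 directions that hold no variance count as spread between mice. The SE is then understated. The fits with 6 libraries hold no such term either, and their SE may be understated too. Keeping the calls in either kind of fit is no independent support. For SR59230A-treated EAE against EAE all 18 alternatives gave 0 and 0, with 4 enzyme genes at an unadjusted limma-trend p under 0.05. Kat2a turned to -0.40 and -0.91 when the chemosensory share was a term. The cause was not tested. With 1 library left out a group of 2 is assumed to vary like the others, and the fit holds 1 direction as a term in place of 2. No paired analysis was possible because the replicate numbers come from deposition order and the labels share no numbers that pair mice across groups. Depth is unknown, so no limit from counting can be given.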
